A study of Mus musculus with 10 samples.

Results

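The 5 leukaemias recovered from Rag2-/-γc-/- recipients did not form 1 group but a set of 3, from recipients 7, 8 and 9, and a set of 2, from recipients 10 and 11. These 5 of the 10 libraries of the study are compared here with each other, and the 5 libraries from C57BL/6J recipients (numbered 1, 3, 4, 5 and 6) serve as a reference level only. The 2 sets were recognised on the first principal component of the same expression values, so every difference between them is a description, and no test of it was independent. Per the labels, all 10 leukaemias carried the retroviral oncogenes AML1-ETO and NrasG12D with GFP in the vector MSCV-IRES-GFP, introduced into bone marrow depleted of lineage-positive cells. The first round of leukaemia arose in Rag2-/-γc-/- hosts, whose GFP+ spleen cells were then passed on to secondary recipients, either C57BL/6J mice with intact immunity or further Rag2-/-γc-/- mice. RNA was taken from GFP+ splenocytes of each secondary recipient once it had developed AML. Strain, genotype, tissue and disease carry the same labels in all 5 Rag2-/-γc-/- samples. The age and sex of the mice, any batch, and the primary leukaemia that each recipient received are not given in the labels, so a difference between the sets and a difference in any of these cannot be told apart. Spread within a set is spread between recipients, and may or may not cover separate primary leukaemias.

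Mice without Rag2 cannot rearrange antigen receptor genes and have no mature T or B cells. The common γ chain, encoded by Il2rg, is shared by receptors for several interleukins, and without it NK cells are also missing. AML1-ETO joins the DNA-binding part of Runx1 to the repressor Runx1t1 and blocks myeloid differentiation, while mutant Nras keeps growth factor signalling on. Leukaemia cells that share these drivers can still differ in how fast they cycle, in stress responses, and in hormone and cytokine signals received from the host.

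The first principal component of all 10 libraries took up 44.92% of the variance. Scores on it were 66.3, 60.8 and 55.8 for libraries 7, 8 and 9, whereas libraries 10 and 11 scored 2 and 14.1. The C57BL/6J libraries scored -63 to -22.4. On the second component (16.71%), libraries 10 and 11 were at -46.6 and -32.7, libraries 7, 8 and 9 at 18.6, 14.3 and 10.8, C57BL/6J library 1 at 54.5 and the other C57BL/6J libraries at -24.7 to 9.8. These scores chose the sets. Among the 5 Rag2-/-γc-/- libraries alone, the first component (63.35%) gave -42.6, -32.7 and -26.3 against 61.5 and 40.1, so library 10 lay farther from the set of 3 than library 11 did.

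**Figure D1:**
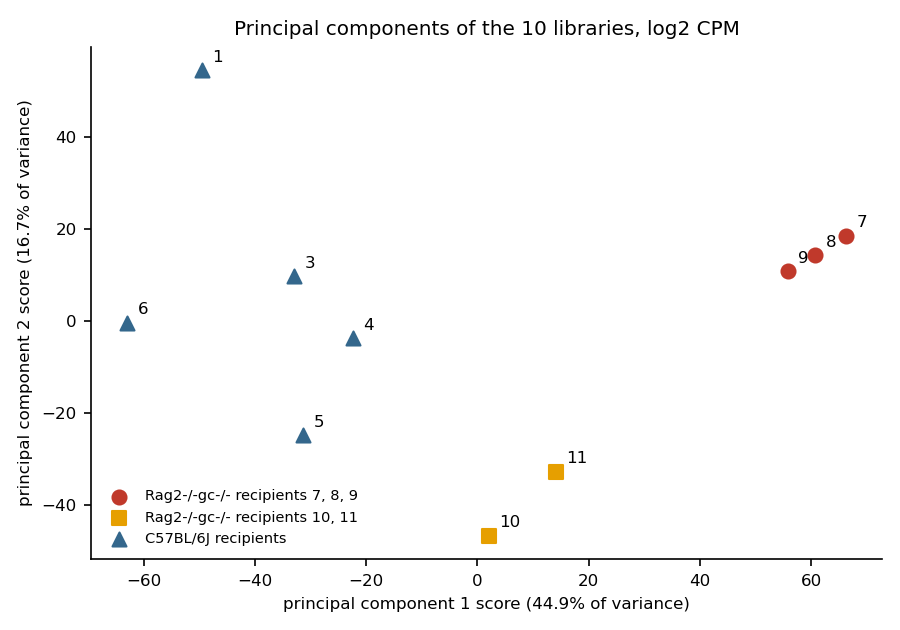
Scores of the 10 libraries on the first (x axis) and second (y axis) principal components of log2 CPM, with the library number beside each point. Libraries 7, 8 and 9 lie together at the right, at 55.8 to 66.3 on the first component, and libraries 10 and 11 at 2 and 14.1, nearer to the C57BL/6J libraries on that axis and below the other libraries on the second.

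Distances between single libraries gave the same picture. The root mean square difference in log2 CPM over 14959 genes was 0.43 to 0.51 within libraries 7, 8 and 9, 0.52 between 10 and 11, and 0.69 to 0.91 between the sets. From libraries 10 and 11 to the C57BL/6J libraries it was 0.67 to 0.97, and from libraries 7, 8 and 9 to them 0.81 to 1.14. Within the C57BL/6J libraries it was 0.51 to 0.88, which reached into the range across the sets. The pairs with C57BL/6J library 1 gave 0.76 to 0.88. Of 9955 genes with a mean of at least 5 CPM (counts per 1e+06 counts of the library, scaled by TMM), 5 to 117 differed at least 2-fold in a pair within the set of 3, 112 between 10 and 11, and 422 to 1291 in a pair across the sets. In a pair of C57BL/6J libraries 63 to 429 of these genes did. The distance between 10 and 11 was thus close to those among 7, 8 and 9, and each of them was below any distance across the sets.

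Totals were 62461126, 42554069 and 28157745 expected counts in libraries 7, 8 and 9 and 30058883 and 38796204 in 10 and 11, so depth overlapped between the sets. Mitochondrial genes took 3.70 to 3.87% of counts in libraries 7, 8 and 9 and 3.47 and 3.01% in 10 and 11. The part of this share in the differences below was not tested. No pair of libraries agreed within sampling noise. Xist, the RNA of the inactive X chromosome, was at 1393, 1414 and 1500.0 CPM against 1373 and 1631 CPM, overlapping between the sets, and 4 Y-linked genes looked up (Ddx3y, Eif2s3y, Kdm5d and Uty) had 0 counts in all 5.

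A gene is called separated here when its fitted difference between the sets was at least 2-fold and its 3 and 2 CPM values did not overlap. Of 14959 tested genes, 1776 were separated (11.9%): 839 were higher in libraries 10 and 11 (5.61%) and 937 were lower (6.26%). These shares are the level beside which the counts of separated genes in each list below stand. At least 4-fold differences accounted for 122 of the higher and 236 of the lower genes. Values without overlap, whatever the size, were found in 28.7% of genes with higher and 30.3% with lower values in 10 and 11. The quasi-likelihood fit of edgeR, whose calls are likewise only a description, called 2242 genes higher (15%) and 2169 lower (14.5%), 29.5% in all, and 1260 of the separated genes were among its calls. Single libraries moved some of these counts by more than 1.5 times: separated lower genes numbered 1627 without library 11, and edgeR calls were 1202 higher and 1147 lower without library 8 and 980 and 950 without library 10. Because the sets were chosen from these values, nothing is read from these counts. The median log2 difference over all tested genes was -0.018. At the edge of the rule, Cad (log2 difference 1.0) and Fads1 (-1.001) lay just inside, and Nudt1 (1.0 after rounding up) and Batf3 (0.999) just outside. Cad was under 2-fold, at 0.89, 0.95 and 0.97, without library 7, 8 or 10, and Fads1, at -0.95, -0.99 and -0.87, without library 7, 9 or 10. In what follows the values of libraries 7, 8 and 9 come first, in that order, then those of 10 and 11, and log2 differences are 10 and 11 minus 7, 8 and 9, with the standard error of the fit. Where leaving out 1 library took a separated gene under 2-fold or moved its value by more than 1.5 times, the log2 difference without that library is given beside it.

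**Figure D2:**
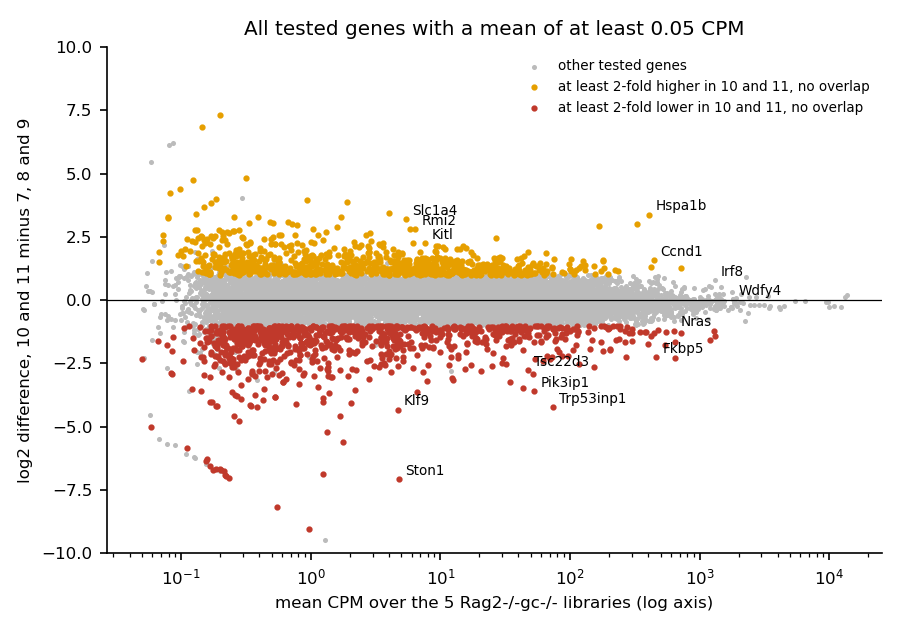
Log2 difference between the sets (y axis, libraries 10 and 11 minus 7, 8 and 9) against mean CPM over the 5 Rag2-/-γc-/- libraries (x axis, log scale), 1 point per tested gene with a mean of at least 0.05 CPM. Orange and red points are the separated genes, of which there were 839 higher and 937 lower in 10 and 11 over all tested genes; Hspa1b lies at the upper right at 3.38 and Trp53inp1 at the lower right at -4.21.

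Genes of the heat shock response, chaperones that HSF1 induces when proteins misfold, were among the most different. All 13 genes of the heat shock list had a higher fitted level in libraries 10 and 11, and 6 were separated, with a list median of 0.91 on the log2 scale against -0.018 over all genes. Hspa1b (ENSMUSG00000090877, chromosome 17, 34956436 to 34959238, GRCm38), an inducible HSP70, was at 91.8, 41.4 and 125 CPM against 678 and 1112 CPM, a log2 difference of 3.38 ± 0.43. Its neighbour Hspa1a, which encodes a nearly identical protein, was at 93.7, 46.2 and 118 CPM against 512 and 883 CPM (3.03 ± 0.39). Both libraries of the higher set exceeded each library of the lower set more than 4-fold for these genes. Reads of this near-identical pair were divided between the copies by RSEM, so the share of each is uncertain. In the C57BL/6J libraries Hspa1b was at 273 to 730.2 CPM, above libraries 7, 8 and 9.

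Hsph1, an exchange factor for HSP70, was at 38.6, 42.4 and 57.2 CPM against 299 and 399 CPM (2.92 ± 0.19), and its C57BL/6J values of 145 to 293 CPM lay between the sets. Hspb1, a small heat shock protein, was at 3.58, 10.8 and 10.6 CPM against 26.7 and 34.9 CPM (1.91 ± 0.42). Its C57BL/6J values (7.08 to 10.4 CPM) were close to libraries 7, 8 and 9. Members of the HSP90 family and of the HSP70 family did not all differ to the same degree. Hsp90aa1, the stress-inducible cytosolic HSP90, was at 409, 465 and 512 CPM against 1159 and 1045 CPM (1.25 ± 0.11). Its constitutive relative Hsp90ab1 was at 2738, 2538 and 2601 CPM against 2831 and 2862 CPM (0.12 ± 0.07). Hspa8, the constitutive HSP70, was at 1679, 1602 and 1806 CPM against 2985 and 3395 CPM (0.91 ± 0.09). The constitutive genes were thus under 2-fold, although their values did not overlap either. Hsf1 itself was at 16.6, 15.4 and 15.3 CPM against 26.4 and 32.1 CPM (0.89 ± 0.12), also without overlap and under 2-fold. Bag3, another gene that HSF1 is known to induce, overlapped between the sets at 59.7, 46.8 and 53 CPM against 44.4 and 65.2 CPM.  In a wider list of 27 HSF1 targets and co-chaperones, assembled after values had been seen, 9 were separated and higher, none lower, and the median was 0.89. Chordc1, an HSP90 co-chaperone on that list, was at 23.3, 22.5 and 22 CPM against 67.4 and 74.8 CPM, and the co-chaperone gene Dnaja4 was at 3.9, 3.04 and 3.04 CPM against 6.28 and 9.81 CPM (1.27; 0.91 without library 11).

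The upstream sequence of Hspd1, the mitochondrial chaperonin HSP60, is shown because the gene was separated (134, 160.5 and 176 CPM against 351 and 352 CPM, 1.17 ± 0.12) and the sequence holds the letters that HSF1 is known to bind. The stretch is on the minus strand, GRCm38.p6, chr1:55088040-55088099, written 5′ to 3′. The heat shock element was searched on both strands as the blocks TTC, GAA and TTC with any 2 bases (NN) between neighbouring blocks. Capitals mark the first match, 144 to 132 bases upstream of the RefSeq gene start. An overlapping match on the other strand, GAAGGTTCtagaa, runs on into the lower case letters.
Hspd1: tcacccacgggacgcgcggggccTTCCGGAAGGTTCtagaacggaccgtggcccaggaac
The same letters lie within the overlapping window of Hspe1, its co-chaperonin, which is transcribed in the opposite direction and was at 87.6, 93.3 and 99.3 CPM against 167 and 177 CPM (0.88 ± 0.09). Of 23 members of the wider list with a RefSeq window (250 bases before to 50 after the gene start), 4 held the motif (17.4%), namely Chordc1, Hspd1, Hspe1 and Hsph1, against 0.662% of 27025 genes. Of the 8 separated members with a window, 3 held it. A match, here and below, is a description of letters and not of binding. Members of the lists were picked for known roles. A share above that of all genes therefore does not bear on the difference between the sets.

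Genes that copy DNA were higher in libraries 10 and 11. All 25 DNA replication genes had a higher fitted level, 6 were separated, and their median was 0.82. Their summed level was 1061, 1602 and 1942 CPM against 3133 and 2488 CPM, with 2103 to 3160.0 CPM in the C57BL/6J libraries. Cdc6 (ENSMUSG00000017499, chromosome 11, 98907801 to 98923940), which loads the replicative helicase at origins, was at 10.8, 19.7 and 17.9 CPM against 50.9 and 40.4 CPM (1.51 ± 0.25). Mcm10, needed to start replication, was at 9.19, 16.7 and 18.4 CPM against 49.2 and 37.4 CPM (1.56 ± 0.28). Ccne2, a cyclin of S phase entry, was at 4.17, 8.3 and 6.66 CPM against 19.7 and 13.1 CPM. Library 7 was the lowest of the 5 for each of these genes, and library 10 the highest. Uhrf1, which recruits the maintenance DNA methyltransferase to replicating DNA, was at 44.9, 73 and 95.4 CPM against 231 and 180.5 CPM (1.54 ± 0.28). Cdca7, a chromatin factor of cycling cells, was at 4.95, 10.5 and 13.8 CPM against 55 and 50.5 CPM (2.46 ± 0.35). For all 6 separated replication genes the C57BL/6J values lay within a factor of 2 of the mean of libraries 10 and 11, at 35.1 to 52 CPM for Cdc6. The number of separated replication genes depended on the libraries, with 16 without library 9, 15 without library 11 and 5 without library 10. Replication-dependent histone genes, a separate list of 15, were mixed. Of these, 7 had a higher and 8 a lower fitted level, 1 was separated and higher and 2 lower, and the median was -0.05. Their summed level was lower in 10 and 11 without overlap, at 155.5, 125 and 135.5 CPM against 112 and 92.2 CPM.

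The upstream sequence of Cdc6 is shown as the example of this group, since it holds a match to the E2F site, the element through which E2F factors switch on S phase genes. It is on the plus strand, GRCm38.p6, chr11:98907987-98908046, written 5′ to 3′. Capitals mark the match (TTTCCCGC or TTTGGCGC, on either strand), 138 to 131 bases upstream of the RefSeq gene start. The RefSeq start lies inside the span of Cdc6 given above, and so does this stretch.
Cdc6: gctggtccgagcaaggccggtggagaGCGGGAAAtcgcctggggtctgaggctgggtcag
Of 19 replication genes with a window, 7 held such a site (36.8%), namely Cdc6, Cdt1, Mcm3, Mcm5, Mcm6, Mcm7 and Pola1, against 1.8% of 27025 genes. Of the 5 separated replication genes with a window, 2 held it.

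Homologous recombination genes, which repair broken DNA and stalled replication forks, had the highest median of the lists with at least 10 tested genes, 1.2. This list of 19 was assembled after values had been seen, so its rank and its count of 13 separated and higher members depend on that choice. Rmi2, part of the complex that dissolves recombination intermediates, was at 1.18, 1.96 and 2.6 CPM against 15.7 and 10.3 CPM (2.8 ± 0.33). Rad54b, a motor protein of strand exchange, was at 3.41, 5.12 and 4.85 CPM against 19.7 and 13.3 CPM (1.9 ± 0.23). Eme1, a nuclease subunit, was at 1.69, 2.71 and 3.18 CPM against 10.4 and 7.21 CPM. Again library 7 was the lowest for these genes, and library 10 the highest. Fignl1, an ATPase gene of the same repair pathway, was at 8.8, 17.7 and 19 CPM against 53.9 and 44 CPM. Brca2, a mediator of strand exchange, overlapped between the sets at 6.92, 13 and 14.7 CPM against 18.8 and 12.6 CPM. In all 13 separated members the C57BL/6J values lay within a factor of 2 of the mean of libraries 10 and 11.

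Mitosis genes were higher in the same libraries. All 25 had a higher fitted level, 4 were separated, and the median was 0.72. Top2a, the topoisomerase that untangles sister chromatids, was at 108, 163 and 173 CPM against 389.8 and 280.5 CPM (1.18 ± 0.22; 0.92 without library 10). Bub1, a spindle checkpoint kinase, was at 16.4, 21.2 and 23.8 CPM against 58.2 and 39.7 CPM (1.26; 0.96 without library 10). Mki67, a general mark of cycling cells, was at 305, 386 and 431 CPM against 667 and 522 CPM (0.67 ± 0.16), without overlap and under 2-fold. Library 10 was above library 11 for these genes, and the number of separated mitosis genes was 0 without library 10, 11 without library 11 and 2 without library 7. Ccnd1, the D-type cyclin that growth factors induce, was at 284, 235 and 220.3 CPM against 707 and 785 CPM (1.6 ± 0.12). Both libraries of the higher set exceeded every C57BL/6J library (419 to 576 CPM). Cdkn1b, an inhibitor of the cell cycle, overlapped at 107, 99.3 and 77.4 CPM against 83.6 and 81.8 CPM.

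Genes of growth and biosynthesis were higher as well. Of 22 ribosome biogenesis and Myc target genes, 20 had a higher fitted level, 5 were separated and higher, none lower, and the median was 0.66. Myc, a transcription factor of growth and ribosome production, was at 27.4, 38.2 and 39.4 CPM against 87.6 and 90.9 CPM (1.35 ± 0.16). Srm, which makes spermidine, was at 21.4, 23.9 and 28.6 CPM against 61.8 and 66.3 CPM (1.38 ± 0.13). Nop56, a nucleolar protein gene, was at 56, 68.7 and 70.6 CPM against 166 and 139.6 CPM. For these genes both sets were narrow and did not overlap, and the C57BL/6J values, 65.6 to 80.2 CPM for Myc, were near those of 10 and 11. Dkc1, a pseudouridine synthase, was at 21.4, 28.9 and 30.4 CPM against 67.2 and 54.8 CPM. Ncl, the abundant nucleolar protein nucleolin, overlapped at 759, 820.5 and 833 CPM against 851 and 768 CPM. Outside the list, Tfrc, the transferrin receptor that brings iron into dividing cells, was at 28.1, 29.8 and 33.6 CPM against 89.2 and 78.4 CPM (1.46 ± 0.11). Fasn, the fatty acid synthase gene, was at 118, 111 and 123 CPM against 274 and 244 CPM (1.15 ± 0.09), but its list, fatty acid synthesis and LXR targets, was mixed. Of 18 tested, 7 had a higher and 11 a lower fitted level, 2 were separated in each direction, and the median was -0.17.

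Amino acid supply genes that ATF4 controls were higher in part. Of 17 tested, 15 had a higher fitted level, 4 were separated and higher, 1 was separated and lower, and the median was 0.62. Chac1, which degrades glutathione, was at 1.77, 1.01 and 1.41 CPM against 5.33 and 7.44 CPM (2.18 ± 0.28). Trib3, a stress-induced pseudokinase, was at 1.28, 0.849 and 1.38 CPM against 4.9 and 5.41 CPM (2.15 ± 0.24). Asns, asparagine synthetase, was at 13.1, 14.3 and 19.6 CPM against 42.9 and 41.1 CPM (1.43 ± 0.17). For Asns the C57BL/6J values (17.6 to 21.3 CPM) were near libraries 7, 8 and 9, so libraries 10 and 11 exceeded all other libraries. The separated lower gene was Slc7a11, the cystine importer, at 7.33, 6.16 and 5.25 CPM against 2.42 and 2.0 CPM (-1.51 ± 0.21). Atf4 itself was at 159, 116 and 133 CPM against 175 and 183 CPM. Slc1a4 (ENSMUSG00000020142), a carrier of neutral amino acids that is not on the list, was at 1.25, 1.23 and 1.3 CPM against 10.7 and 12.7 CPM (3.22 ± 0.16). Its 3 values in the lower set were nearly equal, and its C57BL/6J values of 2.56 to 7.23 CPM lay between the sets. Cth, which makes cysteine, was at 1.39, 0.731 and 1.92 CPM against 5.95 and 4.1 CPM, with 1.16 to 2.2 CPM in the C57BL/6J libraries.

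Several of the 12 genes named for the largest higher values belong to none of these groups. Kitl (ENSMUSG00000019966) encodes stem cell factor, the ligand of Kit, and was at 1.62, 3.44 and 4.12 CPM against 16.9 and 12 CPM (2.27 ± 0.36). The C57BL/6J libraries were at 1.31 to 2.57 CPM, so libraries 10 and 11 exceeded all other libraries. Heg1, a membrane protein that binds the junction protein KRIT1, was at 1.67, 1.65 and 1.84 CPM against 16.2 and 7.76 CPM (2.8 ± 0.31, and 2.18 without library 10). Spice1, a spindle and centriole gene, was at 1.72, 2.6 and 3.11 CPM against 12 and 11.1 CPM (2.24 ± 0.24). Slc5a3, an inositol carrier gene, was at 4.46, 3.85 and 3.4 CPM against 11.2 and 23.5 CPM (2.15 ± 0.30, and 1.51 without library 11). Libraries 10 and 11 differed about 2-fold from each other for Heg1 and Slc5a3, in opposite directions. Pcyox1l was at 3.19, 4.48 and 4.67 CPM against 19.5 and 16.1 CPM (2.12 ± 0.19). Nlrp14, a NOD-like receptor gene best known from germ cells, was at 3.68, 6.72 and 8.61 CPM against 43.6 and 11.5 CPM (2.14 ± 0.55). Its difference rested on library 10, and was 0.88, under 2-fold, without it and 2.81 without library 11. Outside these 12, Bcat1, which starts the breakdown of branched-chain amino acids, was at 0.0844, 0.354 and 0.543 CPM against 4.48 and 4.12 CPM (3.86 ± 0.53).

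Genes that glucocorticoid hormones are known to induce were lower in libraries 10 and 11. The list was assembled after values had been seen, so its rank and its count of separated members depend on that choice. Of 17 tested, 13 were separated and lower, none was separated and higher, and the median was -1.52, the lowest of the lists with at least 10 tested genes. Their summed level was 5689, 4360.0 and 4127 CPM against 1547 and 2164 CPM, with 1901 to 2581 CPM in the C57BL/6J libraries. Fkbp5 (ENSMUSG00000024222, chromosome 17, 28399095 to 28517524), a co-chaperone that dampens the glucocorticoid receptor, was at 694, 675 and 658 CPM against 109 and 174 CPM (-2.25 ± 0.19). Klf9, a repressor induced by the hormone, was at 11.3, 6.09 and 5.25 CPM against 0.196 and 0.531 CPM (-4.32 ± 0.53). Tsc22d3, also known as GILZ, which carries part of the anti-inflammatory action, was at 74.6, 73.4 and 66.2 CPM against 3.99 and 16.8 CPM (-2.76 ± 0.50). For each of these genes every C57BL/6J library was below libraries 7, 8 and 9, at 134 to 294 CPM for Fkbp5, 0.152 to 0.420 CPM for Klf9 and 20.1 to 42 CPM for Tsc22d3. Per1, a clock repressor with a hormone-responsive promoter, was at 252, 186 and 170.4 CPM against 38.8 and 97.8 CPM (-1.57 ± 0.37). Sgk1, a kinase of ion transport and survival, was at 131, 126 and 112 CPM against 40.4 and 44.6 CPM (-1.54 ± 0.11). Zbtb16, a transcriptional repressor, was at 42.2, 56.7 and 53.4 CPM against 22.2 and 23.6 CPM.

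Some members of this list also answer to other signals. Dusp1, a phosphatase that switches off MAP kinases, was at 221, 94.8 and 103 CPM against 24.8 and 35.5 CPM (-2.21 ± 0.40), with library 7 about 2-fold above 8 and 9. Ddit4, an inhibitor of mTOR, was at 365, 446 and 366 CPM against 25.3 and 139.5 CPM (-2.25 ± 0.62). Txnip, which restrains glucose uptake, was at 996, 656 and 592 CPM against 227 and 217 CPM (-1.75 ± 0.22). The pair of metallothionein genes, which bind metal ions, behaved alike. Mt1 was at 669.6, 410.5 and 430.3 CPM against 165 and 260.5 CPM and Mt2 at 452, 255 and 264 CPM against 82.7 and 144 CPM, library 7 being the highest for both, and the difference of Mt1 was -1.24, -0.97 without library 7 and -0.95 without library 10. Errfi1, an inhibitor of EGF receptors, was at 168, 141 and 136 CPM against 40.5 and 88.2 CPM (-1.2 ± 0.30). Cebpd, a myeloid transcription factor, overlapped at 17.4, 12.1 and 11.2 CPM against 10.9 and 16.3 CPM, and Nr3c1, the glucocorticoid receptor gene itself, at 108, 127 and 121 CPM against 119 and 123 CPM (0.03 ± 0.09). Library 11 lay above library 10 for Klf9, Tsc22d3, Per1, Ddit4 and Errfi1. Without library 11 the log2 differences were -5.26 for Klf9, -4.16 for Tsc22d3, -2.38 for Per1, -3.95 for Ddit4 and -1.87 for Errfi1. Without library 10 they were -3.83 for Klf9, -2.09 for Tsc22d3, -1.05 for Per1, -1.49 for Ddit4 and, under 2-fold, -0.75 for Errfi1. The number of separated members was between 11 and 14 with any 1 of the 5 libraries left out.

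The upstream sequence of Sgk1 is shown because it was the 1 of 16 list members with a window that held the full palindrome of the glucocorticoid response element, AGAACA and TGTTCT with any 3 bases (NNN) between them (searched on both strands). It is on the plus strand, GRCm38.p6, chr10:21993679-21993738, written 5′ to 3′, with the palindrome in capitals, 189 to 175 bases upstream of the RefSeq gene start.
Sgk1: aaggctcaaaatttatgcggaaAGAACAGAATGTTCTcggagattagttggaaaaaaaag
The palindrome stood in the windows of 3 of 27025 genes (0.0111%), and the share in the list was 6.2%. Known elements of this kind often depart from the palindrome or lie outside such windows.

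**Figure D3:**
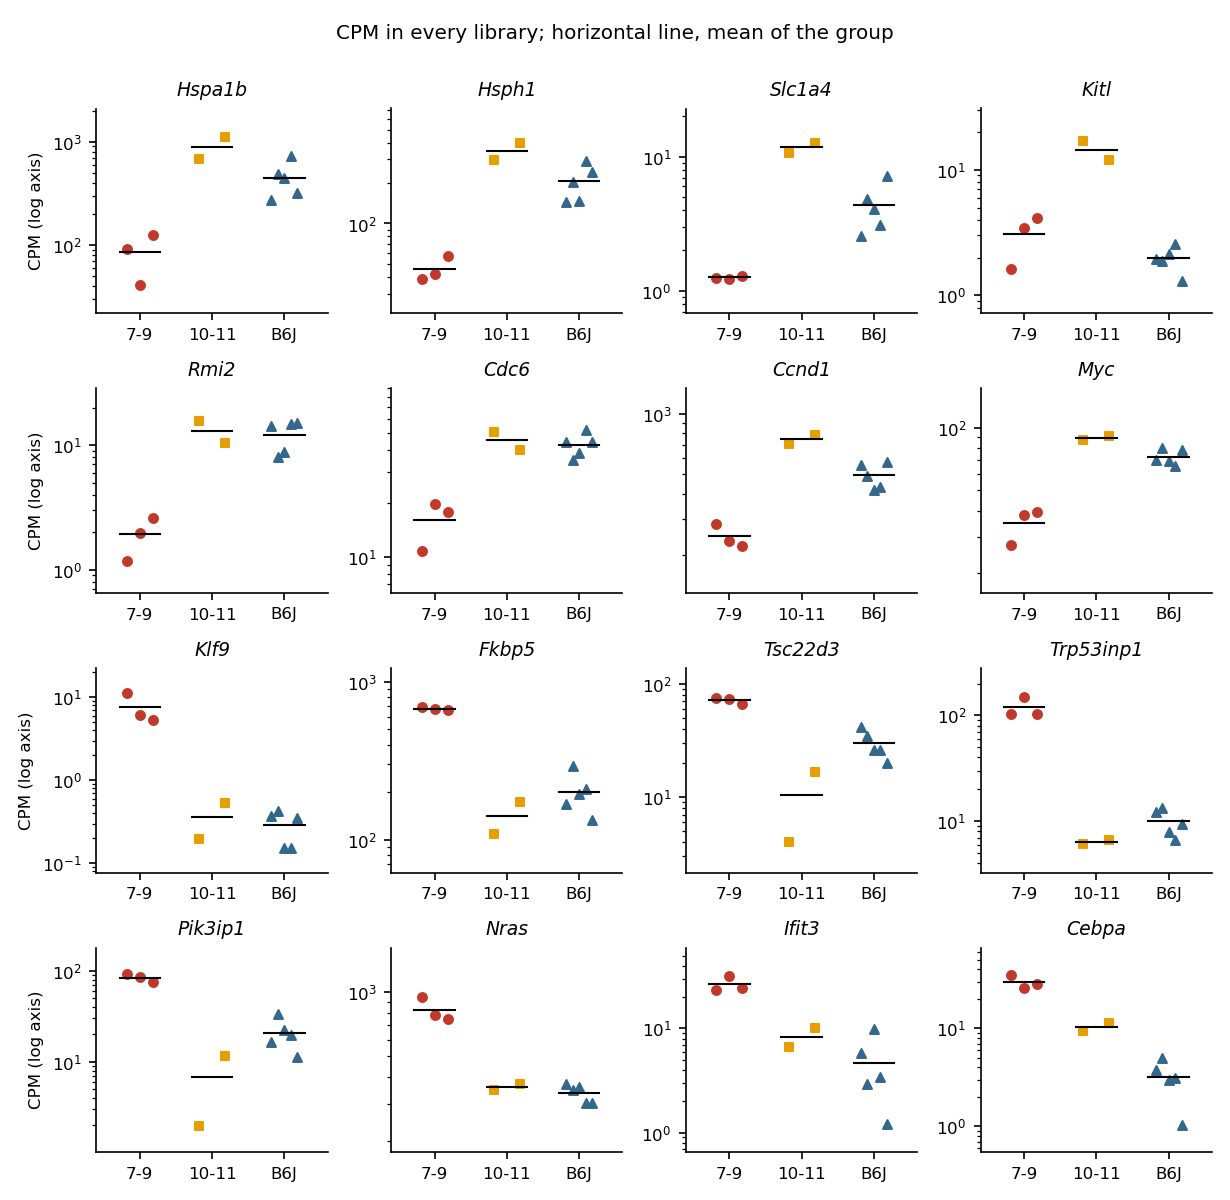
CPM (y axes, log scale) of 16 genes in every library, with libraries 7, 8 and 9 in red, 10 and 11 in orange and the 5 C57BL/6J libraries (B6J) in blue, and the mean of each group as a line. The upper 8 genes were higher in 10 and 11 and the lower 8 lower, with no overlap in any of them; the C57BL/6J libraries sit near 10 and 11 for Rmi2, Cdc6, Myc and Nras, and their mean lies below both sets for Kitl and Cebpa.

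Genes that restrain PI3K and mTOR signalling, many of them targets of FOXO factors, were lower in libraries 10 and 11. In a list of 23, also assembled after values had been seen, 8 were separated and lower, none higher, and the median was -0.73. Trp53inp1 (ENSMUSG00000028211, chromosome 4, 11156431 to 11174379), which acts in autophagy and cell death, was at 104, 149.5 and 103 CPM against 6.11 and 6.68 CPM (-4.21 ± 0.21). Pik3ip1, a membrane inhibitor of PI3K, was at 92.4, 84.5 and 74.4 CPM against 1.96 and 11.5 CPM (-3.6 ± 0.59). Deptor, an inhibitor of mTOR, was at 21.2, 20.3 and 15.8 CPM against 1.73 and 2.73 CPM (-3.08 ± 0.24). For these genes all C57BL/6J values were below libraries 7, 8 and 9, at 6.69 to 13.3 CPM for Trp53inp1, 11.2 to 33.7 CPM for Pik3ip1 and 0.783 to 2.22 CPM for Deptor. Irs2, an adaptor of the insulin receptor, was at 35.2, 23.4 and 19.9 CPM against 6.6 and 11.5 CPM. Bcl2l11, which encodes the death-promoting protein BIM, was at 54.9, 48.5 and 43.3 CPM against 15.3 and 31.2 CPM (-1.07 ± 0.28, and -0.96 without library 7). Library 10 was below library 11 for Pik3ip1 and Bcl2l11, which changed their size. Without library 11 the log2 difference was -5.41 for Pik3ip1 and -1.68 for Bcl2l11, and without library 10 it was -2.86 for Pik3ip1 and, under 2-fold, -0.65 for Bcl2l11. Bmf, another gene of the BH3-only class, was at 54, 46.7 and 44.2 CPM against 16.1 and 18.6 CPM (-1.48 ± 0.13). The FOXO genes themselves overlapped, with Foxo1 at 27.4, 23.6 and 22.4 CPM against 19 and 22.4 CPM and Foxo3 at 43.2, 50.3 and 53.7 CPM against 47.1 and 47.3 CPM.

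Trp53inp1 is also a p53 target. Of 16 p53 targets 1 was separated and higher and 2 lower, Trp53inp1 being 1 of the 2, and the median was -0.06. EdgeR called 7 of the 16 higher and 4 lower, and over all tested genes it called 15% and 14.5%. The separated and higher one was Phlda3, an inhibitor of AKT, at 3.21, 2.95 and 2.82 CPM against 8.01 and 6.0 CPM (1.22 ± 0.18), just under 2-fold without library 10. Trp53 itself was at 68.5, 66.1 and 73.3 CPM against 135 and 126 CPM (0.92 ± 0.09), without overlap and under 2-fold.

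The other genes named for the lowest values have varied roles. Dhx40, an RNA helicase gene, was at 91.5, 69.7 and 44.6 CPM against 3.33 and 8.83 CPM (-3.48 ± 0.46, and -4.36 without library 11). Pdcd4, an inhibitor of translation initiation, was at 51.7, 58.4 and 50.1 CPM against 5.0 and 6.3 CPM (-3.23 ± 0.15). Sh3bp5, which acts on RAB11, was at 12.4, 11.8 and 12.7 CPM against 0.621 and 1.97 CPM (-3.2 ± 0.39, and -4.3 without library 11). In each of these genes the lowest value of libraries 7, 8 and 9 was more than 4-fold above the highest of 10 and 11. Dusp2, a nuclear MAP kinase phosphatase, was at 118, 64.1 and 55.6 CPM against 7.62 and 13.1 CPM (-2.93 ± 0.40). Adcy6, an adenylate cyclase, was at 12.1, 12.1 and 9.55 CPM against 1.14 and 1.95 CPM (-2.84 ± 0.26). Mir22hg, the host transcript of miR-22, was at 42.7, 29.8 and 21 CPM against 3.92 and 5.11 CPM (-2.79 ± 0.32). Mir22hg was near 10 and 11 in the C57BL/6J libraries (3.13 to 7.0 CPM), while Dusp2 was between the sets (13.6 to 24.6 CPM).

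Hunk and Mrap lie near each other on chromosome 16. Mrap, an accessory protein of melanocortin receptors (chromosome 16, 90738324 to 90749785), was at 14.2, 9.41 and 7.56 CPM against 0.196 and 1.39 CPM (-3.64 ± 0.60; -2.91 without library 10 and -5.71 without library 11). Hunk, a kinase gene (chromosome 16, 90386397 to 90499553), was at 23.7, 17.4 and 17.4 CPM against 1.73 and 2.58 CPM (-3.16 ± 0.24). Genes near them differed less, with Urb1 at 60.4, 64 and 61.3 CPM against 29.2 and 42.8 CPM and Mis18a, which went the other way, at 19.7, 21.3 and 23.9 CPM against 28.4 and 25.9 CPM. Ston1, an endocytic adaptor gene, was singled out after its values were seen, for its near absence in 1 set. It was at 7.92, 9.46 and 6.44 CPM against 0.0327 and 0.0759 CPM, which in libraries 10 and 11 stood for 4 expected counts in all (-7.05; -7.8 without library 11), and at 0 to 0.426 CPM in the C57BL/6J libraries.

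Type I interferon response genes were lower in libraries 10 and 11 for the most part. Of 30 tested, 27 had a lower fitted level, 9 were separated and lower, none higher, and the median was -0.48. Their summed level was 984, 1138 and 1060.0 CPM against 712 and 777 CPM. Ifit3 (ENSMUSG00000074896), whose product binds foreign RNA in complex with its relatives, was at 23.2, 31.6 and 24.6 CPM against 6.57 and 10.1 CPM (-1.66 ± 0.22). Its relative Ifit2 was at 76.8, 99.5 and 87.5 CPM against 31.8 and 36 CPM and Ifit1 at 11.5, 16.5 and 13 CPM against 4.48 and 6.22 CPM. These genes are related and lie close together, so reads shared between copies were divided by RSEM. For all 3 the mean of the C57BL/6J libraries was below both sets, with a range of 1.21 to 9.87 CPM for Ifit3. Ifih1, the RNA sensor MDA5, was at 42.4, 48.9 and 46.7 CPM against 18.7 and 22.5 CPM (-1.16 ± 0.12). Mx1, an antiviral GTPase gene, was at 109.5, 131 and 118 CPM against 59.6 and 54.5 CPM (-1.06 ± 0.11), and was just under 2-fold without library 8. Rsad2, the antiviral enzyme viperin, was at 7.35, 11.8 and 9.66 CPM against 2.78 and 6.27 CPM (-1.07 ± 0.35). The difference of Rsad2 was -1.78 without library 11 and, under 2-fold, -0.90 and -0.61 without library 8 or 10. The interferon gamma list was mixed. Of 23 tested, 9 had a higher and 14 a lower fitted level, and 2 were separated and lower (7 without library 11, 4 without library 7 and 1 without library 10) and none higher, with a median of -0.43. Its summed level went the other way without overlap, at 1566, 1643 and 1660.0 CPM against 2073 and 1794 CPM. Among its higher members was Ciita, the activator of MHC class II genes, at 100.5, 124 and 132 CPM against 234 and 184 CPM (0.81 ± 0.15), under 2-fold.

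The upstream stretches of Ifit3 and Ifit1 are shown as a pair of separated relatives that both hold a match to GAAA, any 2 bases (NN) and GAAA again (searched on both strands), the core of the interferon-stimulated response element that STAT and IRF complexes bind. Both are on the plus strand, GRCm38.p6, written 5′ to 3′, at chr19:34583348-34583407 for Ifit3 and chr19:34640760-34640819 for Ifit1. Capitals mark the first match in each stretch, which is on the opposite strand. It lies 156 to 147 bases upstream of the RefSeq gene start in Ifit3 and 104 to 95 in Ifit1. The Ifit1 stretch holds a further match on that strand, tttcagtttc, left in lower case.
Ifit3: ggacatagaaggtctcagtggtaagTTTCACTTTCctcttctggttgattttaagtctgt
Ifit1: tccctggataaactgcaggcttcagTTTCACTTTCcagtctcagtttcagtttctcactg
The letters in capitals are the same in both. Of 22 list members with a window 13 held the motif (59.1%), against 3.99% of 27025 genes, and of the 7 separated members with a window 5 held it.

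Chemokine genes were lower in the same libraries. Of 18 tested, 8 were separated and lower, none higher, with a median of -0.86 and a summed level of 507, 444 and 425 CPM against 209 and 261 CPM. Ccl22, a ligand of Ccr4 that draws regulatory T cells, was at 115, 62.1 and 69.2 CPM against 20.4 and 32.9 CPM (-1.62 ± 0.32). Ccl17, another ligand of that receptor, was at 2.89, 1.84 and 2.03 CPM against 0.0327 and 0.481 CPM (-3.03 ± 0.67; -2.23 without library 10 and -5.99 without library 11). Ccl9, a myeloid chemokine, was at 20.9, 28.7 and 17.9 CPM against 2.98 and 7.89 CPM (-2.03 ± 0.40, and -2.92 without library 11). Library 10 was below library 11 for each of these genes. Ccl6, a neighbour of Ccl9, was at 90.2, 122 and 101 CPM against 25.3 and 42.4 CPM (-1.62 ± 0.23). Cxcl2, a neutrophil attractant, was at 11.8, 3.11 and 2.79 CPM against 0.784 and 1.59 CPM (-2.31 ± 0.73; -1.27 without library 7 and -2.93 without library 11). Library 7 alone held the high value of Cxcl2. Leukotrienes are lipid signals that also attract leukocytes. In the list of retinoic acid and eicosanoid enzymes, which holds Alox5, 1 of 18 was separated and higher and 4 lower, with a median of -0.16. The higher one was Hpgd, a prostaglandin-degrading enzyme, at 8.68, 13.6 and 14.6 CPM against 26.4 and 24.7 CPM (1.06; 0.87 without library 7). Alox5, which makes leukotrienes, was at 158, 91.4 and 70.7 CPM against 15 and 30.2 CPM (-2.23 ± 0.42, and -2.83 without library 11). Ltb4r1, a receptor for leukotriene B4, was at 23.7, 18.5 and 10.9 CPM against 1.47 and 5.89 CPM (-2.24 ± 0.55; -1.59 without library 10 and -3.59 without library 11). The C57BL/6J libraries had 0.859 to 7.71 CPM of Alox5, below both sets.

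Genes of NF-kB signalling and the immediate early response were mixed. Of 21 NF-kB and TNF targets 3 were separated and lower and none higher, with a median of -0.17. Nfkbia, the inhibitor that NF-kB induces, was at 536, 299.7 and 281 CPM against 122 and 180.2 CPM (-1.3 ± 0.31; -0.93 without library 7). Tnfaip3, the deubiquitinase A20, was at 125, 65.1 and 62.5 CPM against 32.9 and 46.6 CPM (-1.08; -0.67 without library 7 and -0.85 without library 10). Of 20 immediate early genes 2 were separated and higher and 4 lower, with a median of -0.49. The higher ones were Myc and Jun, the latter at 172, 116 and 132 CPM against 287 and 282 CPM (1.02; 0.90 without library 8 and 0.99 without library 9). Klf4, a myeloid transcription factor, was at 233, 239 and 304 CPM against 35.4 and 93 CPM (-2.01 ± 0.38, and -2.87 without library 11). Egr1, another factor of this class, was at 296, 157 and 129.7 CPM against 54 and 129 CPM (-1.08 ± 0.45, with -1.85 without library 11 and, under 2-fold, -0.63 and -0.59 without library 7 or 10). Fos overlapped between the sets at 127, 22.8 and 44.8 CPM against 55.4 and 76 CPM. Library 7 was the highest of the 5 for Nfkbia, Tnfaip3, Dusp1, Egr1, Cxcl2 and Fos. Dusp1 and Nfkbia also count in the glucocorticoid list.

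**Figure D4:**
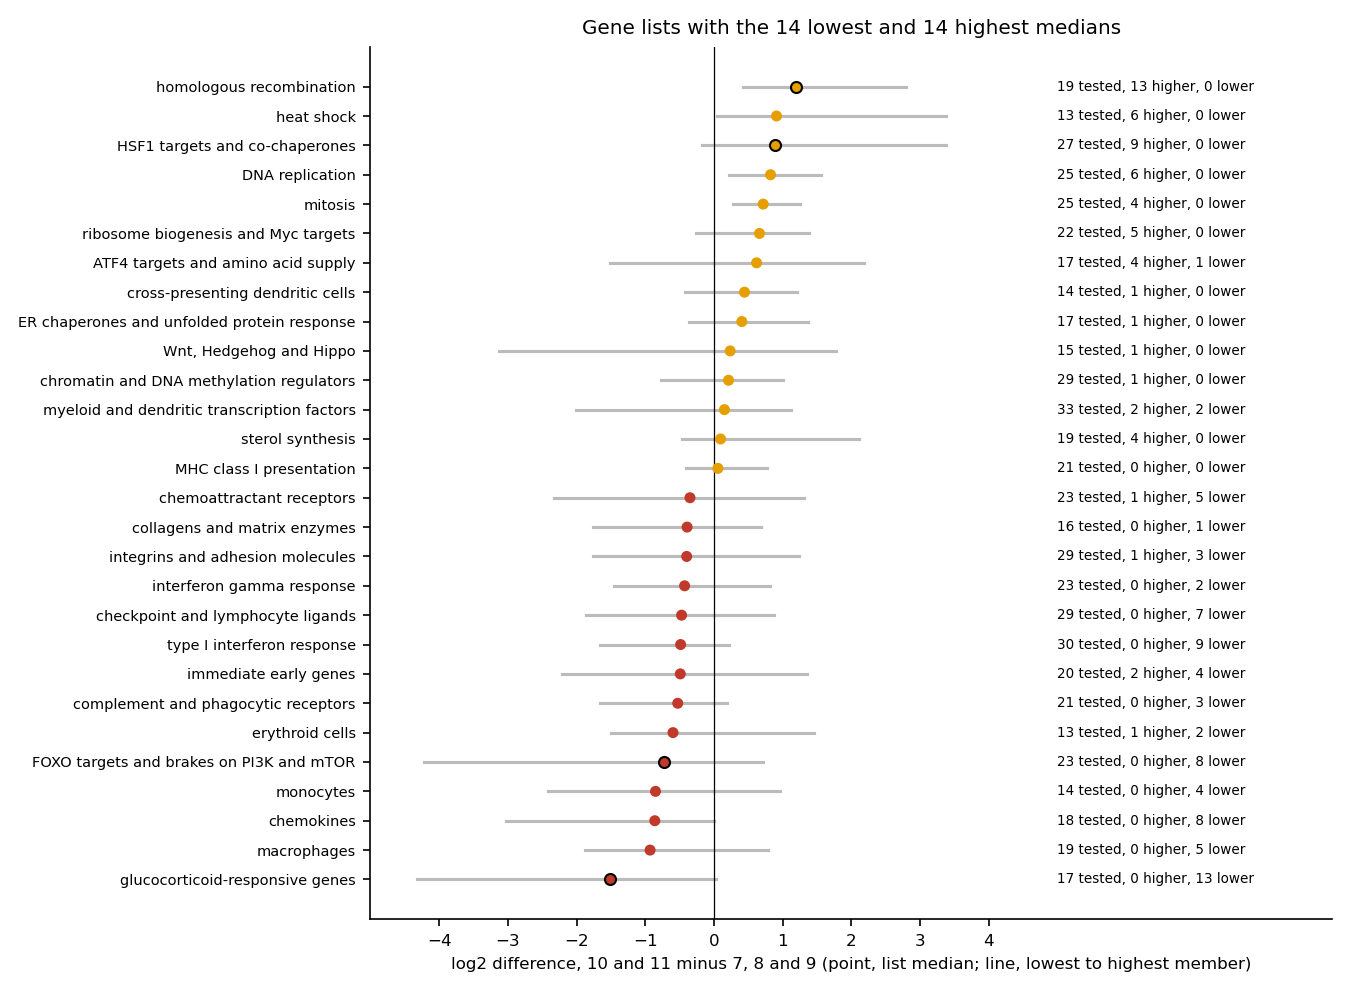
Gene lists with at least 10 tested members, the 14 with the lowest and the 14 with the highest medians: log2 difference (x axis, libraries 10 and 11 minus 7, 8 and 9), with the list median as a point, the lowest to highest member as a line, and the counts of separated genes at the right. Points with a black edge are the 4 lists assembled after values had been seen. The medians run from -1.52 for glucocorticoid-responsive genes to 1.2 for homologous recombination, both of them among these 4 lists.

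Markers of cell types were compared because GFP+ splenocytes could include other cells. Fewer cells of a type and less RNA per cell cannot be told apart in bulk samples. Genes of cross-presenting dendritic cells were high in all 5 libraries, with a summed level of 4996, 6008 and 6294 CPM against 7848 and 7498 CPM over 14 markers, of which 1 was separated and higher. That was Clec9a, the receptor for dead cells, at 47.9, 94.5 and 114 CPM against 220.3 and 174 CPM (1.21 ± 0.32; 0.94 without library 7). Irf8, the factor that directs this lineage, was at 914, 1030.0 and 1080.0 CPM against 1714 and 1787 CPM (0.80 ± 0.09). Xcr1, its chemokine receptor, was at 211, 282 and 307 CPM against 384 and 340.3 CPM, and Batf3, another of its factors, at 15.4, 21 and 23.1 CPM against 39.4 and 39.6 CPM. These 4 genes did not overlap between the sets, and library 7 was the lowest in each. Wdfy4, needed for cross-presentation, overlapped at 1634, 1771 and 1958 CPM against 1875 and 1773 CPM. Flt3, a growth factor receptor of progenitors and dendritic cells, was at 3.19, 3.89 and 4.56 CPM against 6.77 and 5.34 CPM. The general leukocyte gene Ptprc was at 408, 460.0 and 464 CPM against 604 and 619.7 CPM, and the progenitor marker Cd34 at 487, 373 and 387 CPM against 227 and 202 CPM (-0.95 ± 0.14). The stem and progenitor list as a whole differed from Cd34 in direction, with 6 of 9 tested members higher, 2 separated and higher and 1 lower, and a median of 0.56.

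Most monocyte and macrophage markers had a lower fitted level in 10 and 11, 11 of 14 and 16 of 19. For monocytes 4 of 14 were separated and lower, none higher, with a median of -0.85 and a summed level of 386, 391 and 364 CPM against 182 and 256 CPM. Spn, the surface mucin leukosialin, was at 17, 10.8 and 9.23 CPM against 2.45 and 4.45 CPM (-1.83 ± 0.35). Ifitm3, an antiviral membrane protein, was at 278, 218 and 226 CPM against 78.9 and 153 CPM (-1.05; -0.92 without library 7 and -0.65 without library 10). Ms4a6c was at 12.9, 26.2 and 17.3 CPM against 7.55 and 9.74 CPM (-1.11; -0.80 without library 8 and -0.94 without library 10). The integrin gene Itgam, a general myeloid marker, was at 1157, 1031 and 993 CPM against 652 and 869.6 CPM, without overlap and under 2-fold. Ccr2, a monocyte chemokine receptor, went the other way at 1.17, 3.47 and 2.24 CPM against 4.94 and 3.92 CPM (0.96 ± 0.41), without overlap and under 2-fold. For macrophages 5 of 19 were separated and lower, none higher, with a median of -0.93 and a summed level of 3943, 3384 and 3286 CPM against 2888 and 3204 CPM. The higher macrophage markers included Slc40a1, the iron exporter ferroportin, at 42.5, 77.5 and 55 CPM against 106 and 94.8 CPM (0.79 ± 0.23), again without overlap and under 2-fold. Vcam1, an adhesion molecule of splenic macrophages, was at 16.5, 47.9 and 27 CPM against 6.7 and 14 CPM (-1.55 ± 0.48, and -2.18 without library 11). Marco, a scavenger receptor gene, was at 6.0, 8.33 and 5.36 CPM against 2.52 and 1.92 CPM. Mertk, a receptor for dying cells, was at 2.8, 7.76 and 5.54 CPM against 1.76 and 2.58 CPM (-1.29; -0.91 without library 8). Library 8 was the highest for Vcam1, Marco and Mertk, so these markers varied within the set of 3 as well. Cd163, the haemoglobin scavenger, was at 1.2, 2.95 and 2.17 CPM against 0.556 and 0.582 CPM. C1qa, part of the first complement component, was at 43.3, 78 and 48.1 CPM against 23.6 and 35.4 CPM, under 2-fold. Siglec1, a macrophage adhesion molecule, overlapped at 12.9, 43 and 27.3 CPM against 7.91 and 20.7 CPM. The number of separated monocyte markers was 9 without library 11, 7 without library 7 and 2 without library 10, and that of macrophage markers 11 without library 7 or without library 11 and 3 without library 8.

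Markers of other lineages were low. Granulocyte markers summed to 8.56, 35.2 and 21.2 CPM against 6.28 and 29 CPM, overlapping between the sets, and 11 of 18 were under 1 CPM in all 5 libraries. S100a8, a granulocyte protein gene, overlapped at 1.67, 8.59 and 4.38 CPM against 1.01 and 6.53 CPM. Erythroid markers summed to 159.5, 275 and 240.3 CPM against 165 and 253 CPM, and Hba-a1, α-globin, overlapped at 19.1, 37.5 and 33.1 CPM against 8.17 and 24.6 CPM. Of 13 tested erythroid markers 12 had a lower fitted level in 10 and 11, 2 were separated and lower, and the median was -0.595. The 1 higher marker, also separated, was Tfrc, given above. In the summed levels of granulocyte and erythroid markers, libraries 8, 9 and 11 were above libraries 7 and 10. Megakaryocyte and platelet markers summed to 14.3, 20.8 and 16.4 CPM against 4.09 and 6.53 CPM, and 3 of 5 tested genes were separated and lower. Vwf, von Willebrand factor, was at 7.65, 11.8 and 9.59 CPM against 1.99 and 2.28 CPM (-2.17 ± 0.23). Pf4, a platelet chemokine, was at 2.28, 3.73 and 2.82 CPM against 0.360 and 1.77 CPM (-1.42 ± 0.56, with -3.02 without library 11 and, under 2-fold, -0.73 without library 10). Hdc, the histamine-forming enzyme of mast cells and basophils, was at 9.43, 9.98 and 8.5 CPM against 1.1 and 1.77 CPM (-2.67 ± 0.23), and the other 3 tested markers of these cells were not separated.

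The defining T cell gene Cd3e was near 0, at 0.0169, 0.0236 and 0 CPM against 0.0327 and 0 CPM. T cell markers summed to 21.2, 30.9 and 32.2 CPM against 45.5 and 47.4 CPM, and most of that sum was Cd8a, which some dendritic cells also carry, at 14.9, 24.9 and 26.6 CPM against 36.7 and 41.2 CPM. The T cell sum was higher in libraries 10 and 11, without overlap. B and plasma cell markers summed to 281, 289.8 and 314 CPM against 370.4 and 316 CPM, mostly Xbp1, a transcription factor gene of the unfolded protein response that other cells express too, at 219.8, 198 and 204 CPM against 206 and 218 CPM. NK cell markers summed to 8.6, 9.51 and 10.5 CPM against 3.3 and 4.73 CPM. The NK cell sum was lower in libraries 10 and 11, without overlap. It rests on few genes, since 10 of the 12 NK cell markers were under 1 CPM in all 5 libraries. Of 10 tested, 2 were separated and higher and 2 lower, with a median of -0.30. In the C57BL/6J libraries, whose hosts have these cells, the sums were 65.8 to 118 CPM for T cells, 289 to 494 CPM for B and plasma cells and 15.4 to 23.1 CPM for NK cells. The part of other cell types in the differences between the sets was not tested.

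Myeloid and dendritic transcription factors were mixed. Of 33 tested, 17 had a higher and 16 a lower fitted level, 2 were separated in each direction (3 higher and 6 lower without library 11), and the median was 0.15. The separated and higher ones were at low levels, Id3 at 0.608, 0.354 and 0.579 CPM against 1.08 and 1.16 CPM (1.12; 0.91 without library 8) and Erg at 1.64, 1.01 and 0.904 CPM against 2.81 and 2.28 CPM (1.07; 0.95, 0.93 and 0.92 without library 8, 9 or 10). The lower ones were Klf4, given above, and Cebpa. Cebpa, a master factor of granulocyte and monocyte differentiation, was at 34.8, 26 and 28.5 CPM against 9.38 and 11.4 CPM (-1.52 ± 0.17). All C57BL/6J values of Cebpa (1.04 to 4.96 CPM) were below both sets. Receptor and other myeloid genes with a separated, lower level follow as examples. Of 30 growth factor and cytokine receptors 1 was separated and higher and 3 lower, and of 21 complement and phagocytic receptors 0 and 3. Over all tested genes 11.9% were separated. The counts of these 2 lists were near that share, and nothing is read from them. Il6ra, the interleukin 6 receptor, was at 141, 144 and 134 CPM against 56.5 and 70.2 CPM (-1.14 ± 0.11; -0.99 without library 10). Il15ra, the interleukin 15 receptor, was at 8.68, 11.8 and 9.55 CPM against 3.2 and 2.56 CPM (-1.8 ± 0.20). Fcgr2b, an inhibitory Fc receptor gene, was at 55.1, 48.1 and 50.8 CPM against 11.9 and 20.4 CPM (-1.66 ± 0.22). Its activating relative Fcgr3 differed in the same direction, at 733, 569 and 553 CPM against 224 and 320.2 CPM (-1.19 ± 0.19; -0.95 without library 10). Slc11a1, which moves metal ions out of phagosomes, was at 645, 408 and 422 CPM against 185 and 226 CPM. Itga1, a collagen-binding integrin gene, was at 50.8, 50.7 and 43.8 CPM against 10.3 and 18.2 CPM (-1.76 ± 0.23). Rara, a retinoic acid receptor, was at 48.1, 32 and 27.5 CPM against 13 and 16.9 CPM (-1.26; -0.97 without library 7). In Cebpa and each of these examples all 3 values of the first set were above both values of the second. Csf1r, the receptor for macrophage colony-stimulating factor, overlapped at 54.6, 90.9 and 74.6 CPM against 71.3 and 59.5 CPM.

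Nras (ENSMUSG00000027852, chromosome 3, 103058339 to 103067914) is one of the introduced oncogenes, and its reads stood at 953, 785 and 745 CPM against 349 and 370.0 CPM (-1.2 ± 0.12). The C57BL/6J libraries were at 301 to 373 CPM, near 10 and 11. Reads from the retroviral and the endogenous gene cannot be told apart in the table, nor can the number of integrated copies. Feedback inhibitors of RAS-MAPK signalling, which the pathway induces to limit itself, included no separated gene among 14 tested, with a median of -0.23. Of these 14, 10 had a lower and 4 a higher fitted level in 10 and 11, and edgeR called 4 lower and none higher. The list does not hold Dusp1, Dusp2 or Errfi1, given above, which were separated and lower. Dusp6, an ERK phosphatase, overlapped at 289, 256 and 220.5 CPM against 239 and 262 CPM. Rasa2, a RAS GTPase-activating protein, was at 169.6, 148 and 133 CPM against 66.2 and 84.9 CPM, just short of 2-fold (-0.99). Runx1, which forms part of the AML1-ETO fusion, was at 42.5, 37.5 and 34.5 CPM against 44.8 and 66.5 CPM (0.54 ± 0.17), without overlap and under 2-fold. Runx1t1, the other part, had 1 count in library 11 and 0 in the other libraries, so the counts of this gene do not show the labelled fusion. Whether reads of the introduced sequence would be counted under it was not tested. Jak2, a kinase of cytokine receptors, was at 268, 246 and 251 CPM against 110.0 and 131 CPM (-1.08 ± 0.10; -0.96 without library 10).

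Fitted differences in the MHC class I and class II presentation lists were all under 2-fold. None of 21 MHC class I and none of 14 MHC class II presentation genes was separated, with medians of 0.06 and -0.24. EdgeR called 4 class I genes higher and 2 lower, and 1 class II gene higher and 3 lower. B2m, the light chain of class I molecules, was at 1650.0, 1439 and 1360.0 CPM against 1164 and 1105 CPM. H2-K1, a class I heavy chain with close paralogs whose shared reads RSEM divided, was at 1504, 1350.0 and 1363 CPM against 1494 and 1360.0 CPM. Cd74, the class II invariant chain, was at 11990.0, 9790.0 and 10590.0 CPM against 8828 and 8942 CPM. The largest difference among the class I genes was that of Psmb9, an immunoproteasome subunit, at 169.6, 196 and 215 CPM against 366 and 295 CPM (0.77 ± 0.13). Values of B2m, Cd74 and Psmb9 did not overlap between the sets. Among 29 checkpoint and lymphocyte ligand genes 7 were separated and lower and none higher, and 3 were lower without library 10. Cd274, which encodes PD-L1, was at 20.8, 15.5 and 12.8 CPM against 6.18 and 8.75 CPM (-1.13 ± 0.24; -0.91 without library 7 and -0.91 without library 10). Havcr2, the receptor TIM-3, was at 15.4, 22.7 and 24.5 CPM against 6.96 and 11.3 CPM (-1.18 ± 0.27; -0.88 without library 10). Lag3, an inhibitory receptor that binds MHC class II, was at 6.72, 5.05 and 5.14 CPM against 1.76 and 2.6 CPM (-1.36 ± 0.24). For Havcr2 and Lag3 the C57BL/6J values (17.7 to 41.7 CPM and 5.08 to 7.74 CPM) were near libraries 7, 8 and 9, whereas for Cd274 (3.77 to 8.83 CPM) they were near 10 and 11.

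RNA of both genes that the hosts lack was detected in the leukaemia samples. Il2rg was at 12, 10.5 and 11 CPM against 10.8 and 11.3 CPM (-0.01 ± 0.12), overlapping between the sets. Rag2 was at 5.86, 6.56 and 5.68 CPM against 2.52 and 2.0 CPM (-1.42 ± 0.19), with 1.53 to 2.4 CPM in the C57BL/6J libraries, near 10 and 11.

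Libraries 10 and 11 differed from each other in a few groups. Of the sterol synthesis list 4 of 19 were separated and higher with all libraries, 0 without library 10 and 6 without library 11. Idi1, an isomerase of that pathway, was at 5.41, 8.49 and 7.89 CPM against 28.7 and 13.8 CPM (1.55 ± 0.32, and 0.94 without library 10). Sqle, squalene epoxidase, was at 10.2, 10.4 and 14.1 CPM against 30.2 and 18.2 CPM (1.07; 0.67 without library 10). Library 10 was above library 11 for both. The order of 10 and 11 was the reverse for Notch4, a Notch receptor gene, at 60.3, 51.5 and 50.4 CPM against 7.16 and 39.1 CPM. Its log2 difference was -1.21, -0.47 without library 10 and -2.92 without library 11. Serpinb10, a protease inhibitor, had the same order at 8.7, 17.9 and 11.3 CPM against 1.18 and 7.16 CPM, with -1.57, -0.82 without library 10 and -3.42 without library 11.

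The C57BL/6J libraries give a reference level for each separated gene. Of the 839 genes higher in 10 and 11, all 5 C57BL/6J values lay within a factor of 2 of the mean of 10 and 11, and not of the other set, in 456 (54.35%), and of the mean of 7, 8 and 9, and not of 10 and 11, in 49 (5.84%). Of the 937 lower genes the counts were 248 (26.47%) and 61 (6.51%). In 316 lower genes (33.72%), the most frequent class in that direction, and 171 higher genes (20.38%) the C57BL/6J mean lay between the sets without meeting either condition. In a further 225 lower genes (24.01%) the C57BL/6J mean was below both sets without meeting either condition, against 36 of the higher genes (4.29%). Leaving C57BL/6J library 1 out of the classes gave 508 and 51 among higher genes and 275 and 85 among lower ones. These shares are a description and carry no test.

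**Figure D5:**
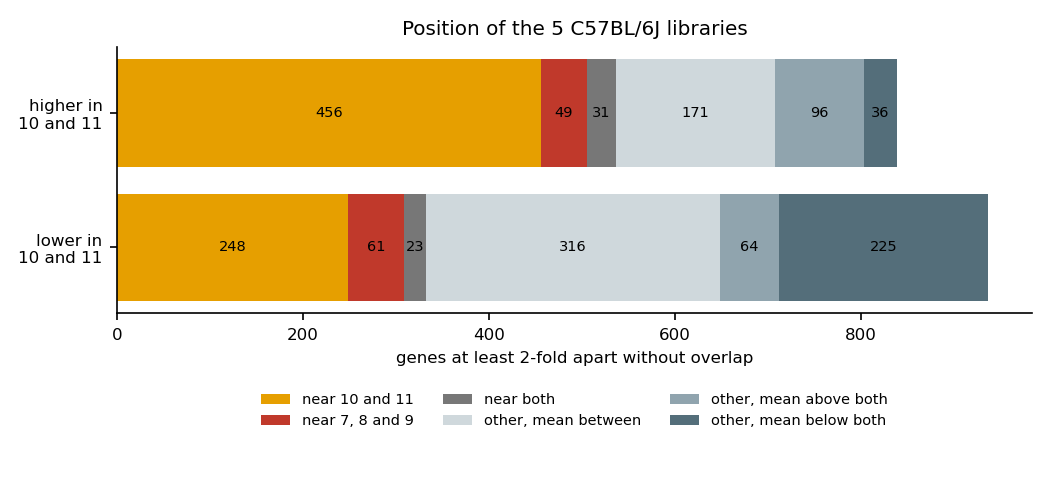
Number of separated genes (x axis) by direction in libraries 10 and 11 (rows) and by where the 5 C57BL/6J values lie, all within a factor of 2 of the mean of 1 set or both, or otherwise by their mean. The C57BL/6J libraries were near 10 and 11 in 456 higher and 248 lower genes and near 7, 8 and 9 in 49 and 61.

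Single genes show the classes. Il20rb, a cytokine receptor chain, was at 4.16, 3.94 and 5.07 CPM against 0.458 and 0.531 CPM, with 0.365 to 0.863 CPM in the C57BL/6J libraries. Plcd3, a phospholipase gene, was at 29.9, 21.8 and 18.9 CPM against 3.33 and 3.82 CPM, with 3.03 to 4.59 CPM in the C57BL/6J libraries. Dirc2, a lysosomal carrier gene, was at 15, 18.3 and 18.7 CPM against 2.32 and 3.49 CPM and Abhd15 at 25.2, 28.9 and 23.8 CPM against 4.8 and 4.05 CPM. In these 4 genes the C57BL/6J values were near 10 and 11. Gls2, liver-type glutaminase, was in the same class and higher in 10 and 11, at 0.0169, 0.118 and 0.145 CPM against 1.01 and 0.658 CPM (3.3 ± 0.68, and 2.66 without library 7). The class near 7, 8 and 9 held Serpina3f, one of a family of close paralogs, at 5.03, 6.16 and 5.32 CPM against 0.458 and 1.47 CPM (-2.47 ± 0.41, and -3.58 without library 11). It also held Ifitm6, an interferon-inducible membrane protein gene, at 59, 29 and 22.3 CPM against 4.61 and 12.8 CPM (-2.07 ± 0.54, and -3.0 without library 11). The C57BL/6J values were 4.85 to 8.18 CPM for Serpina3f and 24.5 to 42.5 CPM for Ifitm6, all above libraries 10 and 11. Casr, the calcium-sensing receptor, was at 3.01, 2.97 and 2.64 CPM against 0.458 and 0.835 CPM. Tgfb3, a TGF-beta ligand, was at 11.8, 12.7 and 9.84 CPM against 3.24 and 4.4 CPM. Of the higher genes in this class, Icam2, an adhesion molecule, was at 3.34, 3.82 and 5.43 CPM against 10.2 and 9.51 CPM, and Smad3, a mediator of TGF-beta, at 6.54, 3.7 and 4.92 CPM against 8.3 and 12.4 CPM (1.03; 0.84 without library 8 and 0.71 without library 11).

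Separated genes were found on every chromosome examined. Median log2 differences per chromosome lay between -0.086 (chromosome 3) and 0.045 (chromosome 16), and 8.68% (chromosome 10) to 14.35% (chromosome 3) of a chromosome's tested genes were separated. In 566 windows of 50 neighbouring tested genes the median lay between -0.407 and 0.334. Both genes of a neighbouring pair were separated in the same direction in 200 of 14900 pairs. Over all tested genes 5.61% were separated and higher and 6.26% separated and lower. Whether neighbours were separated together more often than an even spread would give was not tested.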

How the data were processed

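RNA sequencing libraries (poly(A), single reads) of GFP+ splenocytes from 10 secondary recipients were analysed, 5 from Rag2-/-γc-/- and 5 from C57BL/6J mice. The table of expected counts per gene (RSEM) deposited by the authors was the only measurement. Per the submitters' processing notes, cutadapt 1.11, STAR 2.5.2a, RSEM 1.2.30, edgeR and the build GRCm38 were used. Their settings, the annotation release and the strand setting: not given in the sources used here. RSEM divides reads among close paralogs by estimate, so such genes are less certain.

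Counts were rounded to whole numbers. Genes passed filterByExpr (minimum count 10, minimum total 15), applied over 3 sets of libraries: 7, 8 and 9; 10 and 11; and C57BL/6J. This kept 14959 of 38215 genes. TMM factors came from all 10 libraries. The difference between libraries 10 and 11 and libraries 7, 8 and 9 was fitted with edgeR's quasi-likelihood test (edgeR 4.0.16, limma 3.58.1, R 4.3.3), calls being Benjamini-Hochberg adjusted p below 0.05. CPM values are TMM-scaled, principal components used log2 CPM with a prior count of 2, and the pipeline was tested on simulated data. Totals were 28157745 to 62461126 per library in the Rag2-/-γc-/- samples, so counting error is small for genes of several CPM, and the precision is limited by 3 and 2 libraries.

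The members and lists were chosen with earlier results of these data known, and 4 lists and some named genes after values were seen. Genes named by rule were the 12 highest and 12 lowest separated genes with a mean of at least 5 CPM (predicted genes and pseudogenes left out), up to 4 separated members of each list, genes with no more than 3 counts in 1 set and 5 CPM in the other (there were none), 6 in each direction for each C57BL/6J position and for libraries 10 against 11, and a fixed set; the text gives those with a described role, and other list members as examples. Some genes that the rule names are not reported here. Other normalisations (RLE, upper quartile, TMM over 5 libraries), filters, dispersion, DESeq2 1.42.0, limma-voom, other fold thresholds and leaving out libraries were tried. Promoter windows of 27025 genes came from RefSeq (GRCm38.p6), whose gene starts can differ from those of the gene spans given here.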

Additional observations from a re-analysis of the deposited data

Results flagged for a closer look

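Of 362 groups of values examined, 13 had 1 library far from the other 4 by Dixon's criterion. The groups were each gene named in the text and a few library measures such as total counts. Each was taken in the 5 Rag2-/-γc-/- and in the 5 C57BL/6J libraries. Chance gives about 1 in 20 groups, no fewer than were flagged here. Among the Rag2-/-γc-/- libraries, library 10 stood apart for Nlrp14, at 43.6 CPM with the others at 3.68 to 11.5 CPM. Library 7 stood apart for the chemokine gene Cxcl2, at 11.8 CPM with the others at 0.784 to 3.11 CPM.

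Among the C57BL/6J libraries, library 1 was high for Hba-a1 (20.7 CPM, others 2.30 to 6.42 CPM), Cebpd (14 CPM, others 8.59 to 10.1 CPM) and Id3 (1.95 CPM, others 0.457 to 0.667 CPM) and low for Xbp1 (155 CPM, others 193 to 208 CPM). Library 6 was high for Flt3 (50.5 CPM, others 10.8 to 20.6 CPM) and low for Alox5 (0.859 CPM, others 6.46 to 7.71 CPM) and Rara (5.74 CPM, others 10.3 to 12 CPM). Library 4 was high for Marco (2.49 CPM, others 0.152 to 0.670 CPM) and Cxcl2 (1.29 CPM, others 0.101 to 0.420 CPM), library 3 for Ccl17 (1.78 CPM, others 0.304 to 0.639 CPM) and library 5 for Serpina3f (8.18 CPM, others 4.85 to 5.71 CPM).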

How the results depend on the processing

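With no filter on low counts (21657 genes tested) 1515 genes were separated and lower, and with a filter of 1 CPM (12244 genes tested) 561, against 937. At 1.5-fold, 2002 higher and 1890 lower genes were separated, and at 4-fold 122 and 236. With the 3 sets of libraries in one fit, edgeR called 1436 genes lower, against 2169. Leaving out each Rag2-/-γc-/- library, or C57BL/6J library 1 (chosen after seeing the data), in turn gave 810 to 1142 separated higher and 893 to 1627 separated lower genes, and 980 to 2338 higher and 950 to 2080 lower edgeR calls. Where library 10 or 11 was left out, the remaining one was assumed to vary like the set of 3. DESeq2 called 2513 higher and 2389 lower genes and limma-voom 2279 and 2102. No separated gene named here changed direction under any alternative run, while the median of the granulocyte list went from -0.34 to 0.42 without library 10 and to 0.45 without library 8. Of 2653 alternative values for named genes, 185 moved by more than 1 standard error of the fit, and of 839 for list medians 47 did; the cause was not tested. Genes below 1 CPM rest on few counts, and differences there are the least certain. No paired analysis was possible because the Rag2-/-γc-/- and C57BL/6J libraries share no replicate numbers and the libraries compared carry different numbers.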
